A study of Mus musculus with 135 samples.

Results

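The Sox, Pax, Lhx, Dlx and Irx genes encode transcription factors that set cell identity in the embryo, and H3K4me3, a histone mark of promoters (histone H3 with 3 methyl groups on its lysine 4), was read here at their start sites in mouse cells. Members were the protein-coding autosomal genes of GENCODE M21 whose name is one of these family names followed only by digits, with 2 genes of that form left out. This gave 45 of 20780 protein-coding autosomal genes, namely 16 Sox, 9 Pax, 8 Lhx, 6 Dlx and 6 Irx genes. The rule uses no measured value, though it was set with earlier results of these data known.

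The mark was read by immunoprecipitating chromatin digested with MNase and sequencing its DNA, with an antibody from Millipore. The strains were BXD recombinant inbred strains, the hybrid (B6xD2)F1 (F1) and the inbred founders, C57BL/6J (B6) and DBA/2J (D2). Each BXD strain is a fixed mosaic of the founder genomes. Germ cells were a crude isolate from testes of males 14 days after birth, with 69 libraries of 61 BXD strains, 4 of F1, 3 of B6 and 3 of D2. For both hepatocytes and cardiomyocytes, taken from females at 8 weeks of age, BXD75, BXD87, B6 and D2 had 3 libraries each. Embryonic stem cells were lines derived at embryonic day 3.5, with 5 lines each of BXD75 and BXD87 and 5 libraries each of B6 and D2 that belonged to 3 lines of each founder. Libraries of 1 line were summed, so the line is the replicate. The labels do not say that the libraries of a strain came from separate animals, so p-values measure the spread between these samples, which may be technical.

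Sox proteins bind DNA through an HMG box, Pax proteins through a paired domain, and Lhx, Dlx and Irx proteins through homeodomains, which Lhx proteins combine with LIM domains. Their promoters are typically rich in CpG dinucleotides. In embryonic stem cells many such promoters are known to carry H3K4me3 together with the polycomb mark H3K27me3, a pairing called bivalent, while the genes are silent. H3K27me3 and RNA were not analysed here, so a level of H3K4me3 is not a level of expression.

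The promoters below belong to 5 members called between B6 and D2 in stem cells, hepatocytes or cardiomyocytes, and are shown because the strain comparisons turn on them (RefSeq, GRCm38.p6, the mm10 assembly). Each runs 5′ to 3′ from 250 bases before to 50 bases after the start of the gene, in lower case with every CpG in capitals. They are, in order, Lhx9 (chr1:138842395-138842694, minus strand), Pax8 (chr2:24475550-24475849, minus strand), Sox6 (chr7:116030998-116031297, minus strand), Sox11 (chr12:27342669-27342968, minus strand) and Irx4 (chr13:73260247-73260546, plus strand).
Lhx9: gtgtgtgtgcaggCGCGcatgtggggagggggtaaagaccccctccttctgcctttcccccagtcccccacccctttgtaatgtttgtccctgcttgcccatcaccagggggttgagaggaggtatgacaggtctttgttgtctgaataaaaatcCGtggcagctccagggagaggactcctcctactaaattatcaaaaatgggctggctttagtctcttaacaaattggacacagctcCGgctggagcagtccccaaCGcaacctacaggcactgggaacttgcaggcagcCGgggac
Pax8: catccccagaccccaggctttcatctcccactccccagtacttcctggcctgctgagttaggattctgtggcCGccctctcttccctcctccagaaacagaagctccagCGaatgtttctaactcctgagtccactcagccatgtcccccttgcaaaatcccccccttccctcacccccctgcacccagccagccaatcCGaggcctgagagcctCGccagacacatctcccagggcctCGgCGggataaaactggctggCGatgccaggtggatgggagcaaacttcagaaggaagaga
Sox6: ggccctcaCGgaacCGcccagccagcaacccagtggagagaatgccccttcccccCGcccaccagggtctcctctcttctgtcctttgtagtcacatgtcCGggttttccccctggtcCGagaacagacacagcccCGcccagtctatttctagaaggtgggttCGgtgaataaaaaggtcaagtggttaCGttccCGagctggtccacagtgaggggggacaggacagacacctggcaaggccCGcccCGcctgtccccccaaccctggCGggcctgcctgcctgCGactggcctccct
Sox11: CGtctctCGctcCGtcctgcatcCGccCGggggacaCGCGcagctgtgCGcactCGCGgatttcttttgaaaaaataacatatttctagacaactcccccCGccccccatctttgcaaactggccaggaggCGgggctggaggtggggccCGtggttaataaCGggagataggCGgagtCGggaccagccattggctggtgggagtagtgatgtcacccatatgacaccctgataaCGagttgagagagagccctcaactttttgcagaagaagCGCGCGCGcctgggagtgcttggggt
Irx4: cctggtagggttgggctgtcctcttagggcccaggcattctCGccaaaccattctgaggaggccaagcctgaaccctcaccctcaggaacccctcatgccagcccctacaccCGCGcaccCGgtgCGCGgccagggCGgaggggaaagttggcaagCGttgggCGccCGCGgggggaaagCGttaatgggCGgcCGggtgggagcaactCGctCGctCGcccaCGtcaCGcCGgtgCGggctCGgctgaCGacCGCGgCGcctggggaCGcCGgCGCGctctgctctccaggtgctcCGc
They hold 6, 7, 13, 21 and 31 CpG in that order, read on both strands since CG is its own complement. Of all RefSeq promoters of this length, 56.8% hold at least as many CpG as Lhx9, 52.5% as many as Pax8, 38.5% as many as Sox6, 25.4% as many as Sox11 and 10.9% as many as Irx4. All but that of Pax8 lie wholly inside the peak described below. The Pax8 stretch lies 301 bases from its hepatocyte peak.

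A peak within 1 kb of a GENCODE start site was taken as a promoter peak. In germ cells 44 of the 45 genes had one (97.8%), against 69.9% of all protein-coding autosomal genes. In stem cells 42 had one (93.3%), against 68% of all genes. In cardiomyocytes 33 had one (73.3%), against 60% of all genes. In hepatocytes 17 had one (37.8%), against 57.2% of all genes, so only in hepatocytes did the members fall below the share of all genes. A list of 69 other developmental transcription factors gave 88.4% in germ cells, 97.1% in stem cells, 82.6% in cardiomyocytes and 36.2% in hepatocytes. These are shares of peak lists with no replicates. Cell types also differ in library kit, sex, age, antibody lot and peak list, and these cannot be told apart from cell type.

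The absence of a peak from a list does not show that the mark is absent. Among 6 marker genes fixed for each cell type, all 6 had a promoter peak in germ cells and 5 in hepatocytes, the exception being Serpina1a. In stem cells 3 did, without Pou5f1, Nanog and Tdgf1. In cardiomyocytes 2 did, Ryr2 and Myl2, without Myh6, Tnnt2, Actc1 and Nppa. Cardiomyocyte libraries also held peaks at 7 of 8 fibroblast and stellate markers, with a summed level of 376 to 495 CPM (the reads of a peak scaled to the reads in all peaks of the library), and at 4 of 7 endothelial markers, with 317 to 410 CPM and no listed peak at Pecam1, Emcn and Erg, beside 187 to 350 CPM over the 2 cardiomyocyte markers. Peaks at 7 of 8 fibroblast and stellate markers were also listed in stem cells (96.5 to 139 CPM) and germ cells (160 to 245 CPM). Cardiomyocytes had peaks at 3 of 5 Sertoli markers too, at 172 to 244 CPM. A listed peak thus does not show that a cell type is present, and sums over unlike numbers or sets of genes are not comparable in size. The part of other cell types in the cardiomyocyte values was not tested. In a bulk sample more cells of a type and more of the mark in each cell cannot be told apart. Libraries held 1.87 to 31.4 M reads in peaks in germ cells, 13.8 to 20.2 M in stem cells, 8.95 to 25.2 M in hepatocytes and 2.62 to 12.8 M in cardiomyocytes.

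By family, hepatocytes had a promoter peak at 7 of 16 Sox, 4 of 9 Pax, 1 of 8 Lhx, 2 of 6 Dlx and 3 of 6 Irx genes. Cardiomyocytes had one at 12 Sox, 4 Pax, 6 Lhx, 6 Dlx and 5 Irx genes. In germ cells only Pax2 lacked a peak, and in stem cells Sox4, Pax4 and Lhx3 lacked one. The Lhx family thus showed the widest range, with 8 of 8 genes in germ cells and only Lhx1 in hepatocytes. Pax genes were the family least often listed in cardiomyocytes.

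All 4 cell types had a promoter peak at 13 members (28.9%), against 46% of all genes. These were Dlx1, Dlx4, Irx1, Irx3, Irx5, Lhx1, Pax6, Pax9, Sox6, Sox7, Sox12, Sox13 and Sox21. A further 18 members (40%) had one in germ cells, stem cells and cardiomyocytes but not in hepatocytes, a pattern of 7.03% of all genes. These were Dlx2, Dlx3, Dlx5, Dlx6, Irx2, Irx4, Lhx2, Lhx4, Lhx6, Lhx8, Lhx9, Pax5, Sox1, Sox8, Sox11, Sox17, Sox18 and Sox30. Germ and stem cells alone had peaks at 7 members, among them the neural crest and glial factor Sox10 and the muscle and neural crest factor Pax7. The other 5 were Irx6, Lhx5, Pax1, Sox14 and Sox15. Pax3, Pax8 and Sox5 had a peak in every cell type but cardiomyocytes, and Sox4 in every one but stem cells. Pax2, a kidney factor, had peaks only in stem cells and cardiomyocytes. Only Lhx3, a factor of the pituitary, and Pax4, a factor of pancreatic beta cells, were listed in a single cell type, germ cells. No member lacked a peak in every list.

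**Figure D1:**
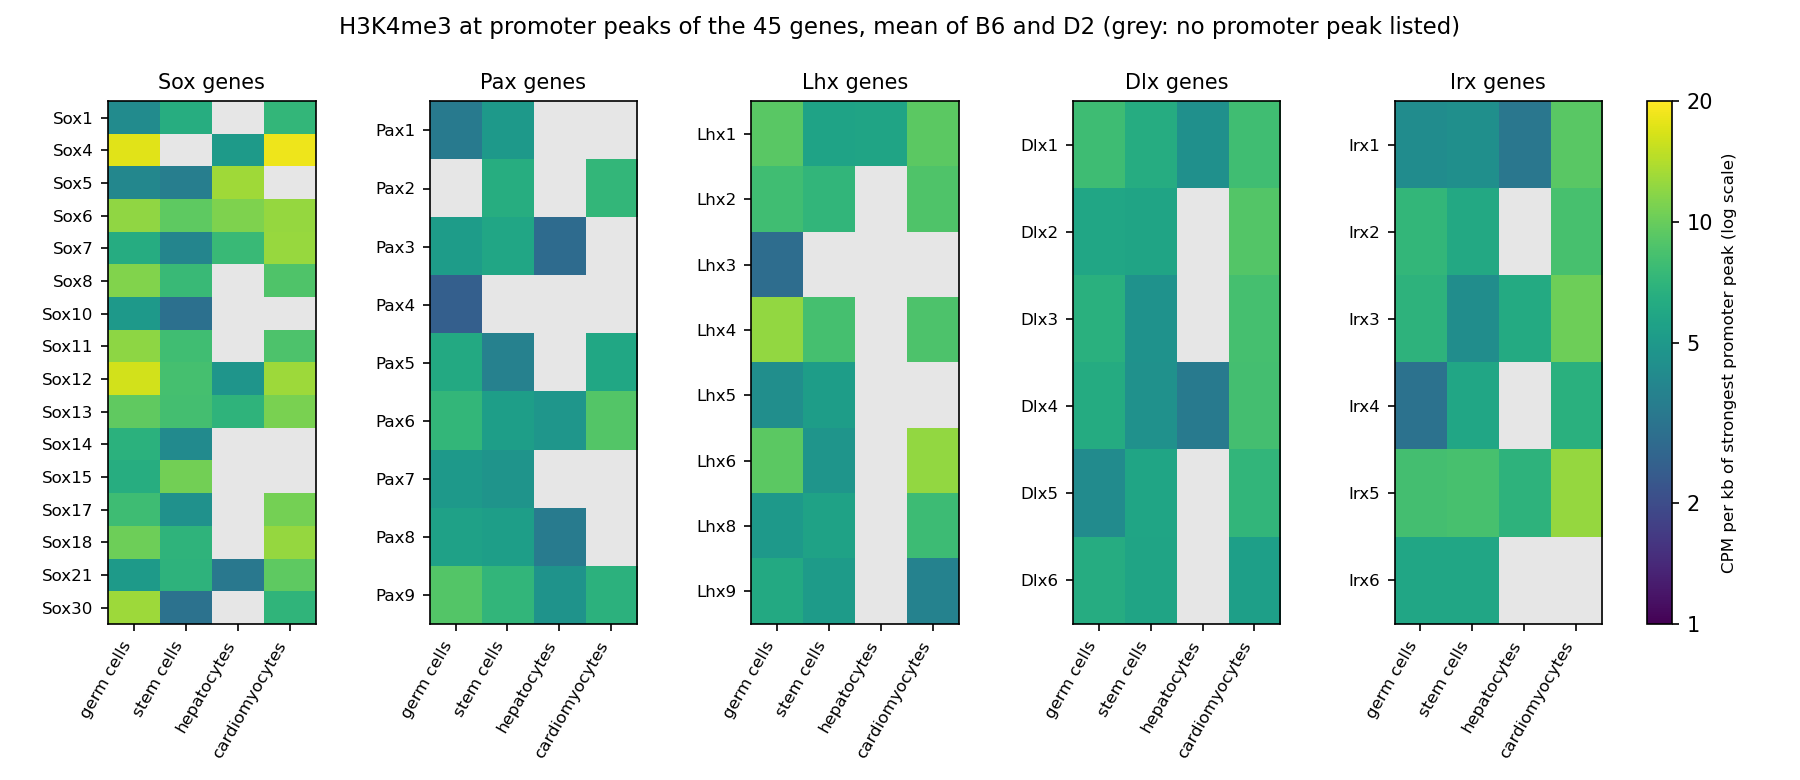
H3K4me3 level (CPM per kb of the strongest promoter peak, mean of B6 and D2 libraries, colour on a log scale) of each of the 45 genes, by family, in germ cells, stem cells, hepatocytes and cardiomyocytes. Grey cells are genes with no listed promoter peak: the hepatocyte column is grey for 28 genes and the germ cell column for Pax2 only.

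Levels were compared between genes as CPM per kb of peak, averaged over B6 and D2. CPM is scaled to the reads in the peaks of each list, which held 23809 peaks in cardiomyocytes and 67192 in stem cells. Levels of a gene in different cell types, here and below, thus have unlike denominators and are not directly comparable. The median of the 50 member peaks in germ cells was 6.33 CPM per kb, against 12.8 over all promoter peaks. In stem cells it was 5.66 for 48 member peaks, against 7.26. In hepatocytes it was 4.97 for 18 member peaks, against 10.6. In cardiomyocytes it was 8.71 for 37 member peaks, against 11.2. Member peaks were thus lower than the typical promoter peak in each of the 4 lists. Their median width was 4426.5 bases in germ cells and 6847 bases in cardiomyocytes, against 3036 and 4298 bases over all promoter peaks, and 3268.5 bases in stem cells and 2732 bases in hepatocytes, against 3688 and 6089 bases.

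The SoxC genes Sox4, Sox11 and Sox12, factors of neural and mesenchymal progenitors, were among the strongest members in germ cells, where all 3 ranked in the first 6. Sox4 led in germ cells with 17.5 CPM per kb and in cardiomyocytes with 18.5 CPM per kb, where it exceeded 99.2% of promoter peaks. Sox12 was next in both, with 16.3 and 12.9 CPM per kb. Sox11 had 12 CPM per kb in germ cells, 7.95 in stem cells and 8.64 in cardiomyocytes, where it ranked 20 of 37. In hepatocytes Sox4 and Sox12 had 5.09 and 4.78 CPM per kb, and Sox11 was not listed there, nor Sox4 in stem cells. The germ cell list went on with Sox30, a factor of sperm development, at 12.8 CPM per kb, Lhx4 at 12.3, Sox6 at 12.2, Sox8 at 11.4 and Sox18 at 10.3. Sox30 was at 3.09 CPM per kb in stem cells and 7.12 in cardiomyocytes, with no listed peak in hepatocytes.

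The SoxD genes Sox5, Sox6 and Sox13, which lack a transactivation domain and act in cartilage, glia and muscle, had the 3 widest member peaks in hepatocytes, and Sox5 and Sox6 also the highest levels. Sox5 had 13 CPM per kb over a peak of 16485 bases, Sox6 had 11.2 over 10723 bases and 6.47 at a second peak, and Sox13 had 7.05 over 10152 bases. Sox5 was at 4.02 CPM per kb over 3090 bases in germ cells and 3.604 over 2704 bases in stem cells. The Sox5 peak exceeded 75.3% of promoter peaks by level in hepatocytes, 10% in germ cells and 10.5% in stem cells. Hepatocytes thus had the widest peak listed for Sox5 and its highest standing within a list. Their other leading members were Sox7 at 7.63 CPM per kb, Irx5 at 6.93, Irx3 at 6.23 and Lhx1 at 5.76. The widest hepatocyte peaks after the SoxD genes were those of Irx3 (6714 bases) and Sox7 (6180 bases).

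The SoxF genes Sox7, Sox17 and Sox18, factors of endothelial cells, had 12.7, 10.7 and 12.4 CPM per kb in cardiomyocytes. In stem cells they had 3.93, 4.53 and 7.05 CPM per kb, and in hepatocytes only Sox7 was listed. The Sox18 peak in cardiomyocytes was 14813 bases wide. In germ cells they had 6.42, 7.93 and 10.3 CPM per kb. Endothelial markers summed to 317 to 410 CPM in cardiomyocyte libraries, 153 to 180 CPM in stem cell lines and 28.9 to 55.8 CPM in hepatocyte libraries, with 4 of 7 at a peak in each, and to 84.1 to 125 CPM over 5 of 7 in germ cell libraries of F1, B6 and D2. The genes summed differ: stem cells lacked Cdh5, Emcn and Tie1, hepatocytes Pecam1, Cdh5 and Tek, and cardiomyocytes Pecam1, Emcn and Erg. These sums are therefore not comparable in size between cell types. The part of endothelial cells in the SoxF levels was not tested.

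Among Irx genes, which pattern the heart ventricles and conduction system, Irx4 had the widest member peak in cardiomyocytes at 33068 bases, wider than 99.3% of promoter peaks. It was 1929 bases wide in germ cells and 2439 bases in stem cells, and it was not listed in hepatocytes. Irx5 covered 15448 bases at 12.4 CPM per kb in cardiomyocytes and was the widest member in germ cells at 13341 bases. Irx3 covered 10147 bases in cardiomyocytes and 11077 bases in germ cells. In cardiomyocytes the Irx4 peak thus stood apart by width rather than by reads per kb, where it ranked 34 of 37 members' peaks at 6.67 CPM per kb. The Irx5 peak ranked 2 by width and 6 by reads per kb. Lhx6, a factor of cortical interneurons, reached 12.3 CPM per kb in cardiomyocytes, and the peaks of Sox13 (14947 bases) and Lhx9 (12985 bases) were the other wide ones there. In germ cells Dlx2 (11296 bases), Lhx8 (7031 bases) and Sox11 (6891 bases) were also wide.

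In stem cells the leading member peak was that of Sox15, at 10.6 CPM per kb over 13557 bases. That interval also covers start sites of Cd68, Mpdu1, Mir1934 and Gm24029, and its reads cannot be assigned to one of these genes. Sox6 (9.56 CPM per kb), Irx5 (8.32), Sox12 (8.26), Lhx4 (8.23), Sox13 (8.14), Sox11 (7.95) and Sox8 (7.63) followed. After Sox15, the widest stem cell peaks were those of Sox21 (8731 bases), Irx3 (8071 bases), Sox11 (7566 bases) and Sox12 (7398 bases). Stem cells had the narrowest range of levels between members, 2.47 to 10.6 CPM per kb. Another gene's start, often that of an antisense or noncoding RNA such as Crnde at Irx5 or Irx3os at Irx3, lay within 1 kb of 21 of 50 member peaks in germ cells, 17 of 48 in stem cells, 5 of 18 in hepatocytes and 18 of 37 in cardiomyocytes. The mark has no strand to separate such genes.

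Over stretches of the same length read from the mm10 genome at GENCODE start sites, members held a median of 21 CpG, against 16 for all protein-coding autosomal genes. At least 10 CpG were present in 37 of 45 members (82.2%), against 61.9% of all genes. GENCODE and RefSeq starts can differ: at the GENCODE start Lhx9 held 19 CpG, Sox11 30 and Pax8 8, and Sox6 and Irx4 held 13 and 31 as in the printed stretches. Irx promoters had the highest family median, 26, and Dlx promoters the lowest, 13. Sox12 had the most with 47, and Dlx1 and Pax4 the fewest with 3. Members with and without a hepatocyte peak were alike in this respect, with 82.4% of 17 and 82.1% of 28 holding at least 10 CpG. Some members are neighbours. Dlx1 and Dlx2 lie 18.6 kb apart, Dlx5 and Dlx6 18.7 kb and Dlx3 and Dlx4 26.1 kb. Irx5 lies 317 kb from Irx6 and 556 kb from Irx3, and Irx2 lies 632 kb from Irx4 and 665 kb from Irx1. Yet in hepatocytes Dlx1 and Dlx4 had a listed peak and their close neighbours Dlx2 and Dlx3 did not.

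Strain differences were tested with edgeR's quasi-likelihood F test on the counts of all peaks, and a peak was called at a Benjamini-Hochberg adjusted p under 0.05 over all of them. Log2 values are the first strain minus the second. In stem cells B6 differed from D2 at 5 of 48 member peaks (10.4%), 1 higher in B6 (Sox11) and 4 lower (Lhx9 at 2 peaks, Sox13 and Sox15). Of all promoter peaks 12.7% were called, and of all peaks 30.6%, so the members' share was near the background. Without D2 line 216 the count was 10, and the share of promoter peaks called in that fit is not given. The median log2 difference was -0.09 over member peaks and 0.01 over promoter peaks.

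The Sox11 peak in stem cells (chr12:27337045-27344610, mm10) is centred on an exon of the gene and holds the promoter printed above. Its level was 79.1, 86.8 and 80.3 CPM in the B6 lines, against 39, 30.5 and 45.4 CPM in the D2 lines. The groups did not overlap, and every B6 line was far above every D2 line. The log2 difference was 1.11 ± 0.14 (SE, adjusted p = 2.98e-06). It remained called when any line was left out. Levels in BXD75 lines were 89.5, 80.1, 74.7, 79.8 and 72.9 CPM, against 34, 41.5, 28.5, 29.9 and 28.6 CPM in BXD87 lines. All BXD75 lines were above all BXD87 lines (log2 1.29 ± 0.11, adjusted p = 1.45e-08).

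Lhx9, a LIM homeodomain factor needed to form the gonads, had 2 promoter peaks in stem cells that went the other way. At the first (chr1:138840742-138844413), which lies in an intron and holds the printed promoter, the B6 lines had 10.1, 12.5 and 9.996 CPM, against 22.1, 19.4 and 18.4 CPM in the D2 lines (log2 -0.89 ± 0.13, adjusted p = 2e-05). At the second (chr1:138846161-138849490) the B6 lines had 14.8, 13.9 and 15.9 CPM, against 21.7, 17.7 and 19.1 CPM in the D2 lines (log2 -0.38 ± 0.11, adjusted p = 0.0114). All B6 lines were below all D2 lines at both. The BXD lines split in the same way. At the first peak BXD75 lines had 12.7 to 14.3 CPM, against 19.2 to 26.2 CPM in BXD87 lines (log2 -0.75 ± 0.10, adjusted p = 9.1e-06). At the second BXD75 lines had 12 to 13.8 CPM, against 20.4 to 23.3 CPM in BXD87 lines (log2 -0.78 ± 0.09, adjusted p = 8.9e-07).

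Sox13 and Sox15 gave the other calls. A small intronic Sox13 peak (chr1:133392552-133394059), found on the second genome alone, had 2.30 to 2.81 CPM in B6 lines and 3.36 to 5.75 CPM in D2 lines (log2 -0.86 ± 0.23, adjusted p = 0.00735), while the main Sox13 peak was not called. The same small peak was lower in BXD75 than in BXD87 (log2 -0.75 ± 0.20, adjusted p = 0.00823). A peak listed on 1 genome alone may have entered the list through the founder where it is high. The founder test at this small peak is then not independent of its listing. The interval at Sox15 had 129, 135 and 114 CPM in B6 lines, against 157, 152 and 173 CPM in D2 lines (log2 -0.35 ± 0.10, adjusted p = 0.0117). The immune marker Cd68, 1 of 5 immune markers with a stem cell peak, is that same interval.

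**Figure D2:**
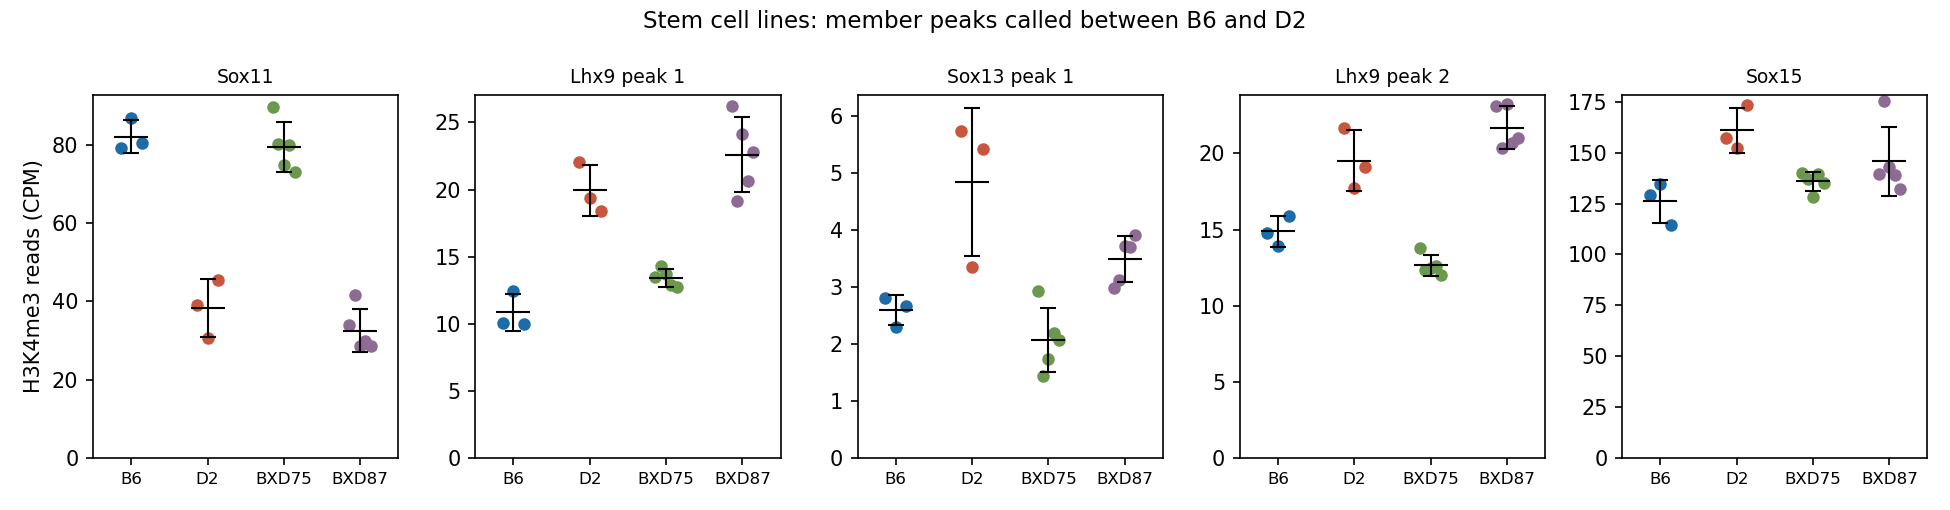
H3K4me3 level (CPM) at each member peak called between B6 and D2 stem cells, in B6, D2, BXD75 and BXD87. Points are cell lines (3, 3, 5 and 5), the long bar is the mean and the whiskers 1 SD. Sox11 is high in B6 and BXD75, and both Lhx9 peaks are low there.

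Between BXD75 and BXD87 stem cells 7 of 48 member peaks were called (14.6%), against 11.7% of promoter peaks and 21.8% of all peaks. Besides Sox11, both Lhx9 peaks and Sox13 these were Sox12 (log2 0.24 ± 0.08, adjusted p = 0.0374), Sox7 (0.42 ± 0.14, adjusted p = 0.0384) and Dlx3 (0.34 ± 0.12, adjusted p = 0.042), all higher in BXD75. Their lines overlapped between the groups. Sox7, for example, ranged over 18 to 23.5 CPM in BXD75 and 12.6 to 18.7 CPM in BXD87. These 3 calls were each lost when some single lines were left out. The 4 calls shared with the founders had the same direction in both comparisons, which do not share libraries. Both Lhx9 peaks and the small Sox13 peak lie on the same chromosome, as their positions above show. A BXD strain may have inherited them together, so these calls need not be independent. The genotype of the strains there was not examined.

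In hepatocytes 1 of 18 member peaks was called between B6 and D2, Pax8, lower in B6, against 7.5% of promoter peaks and 15.8% of all peaks. Pax8, a factor of thyroid and kidney development, had 2.174, 2.70 and 2.70 CPM in B6 hepatocytes, against 17.3, 11.8 and 16.3 CPM in D2 hepatocytes. The log2 difference was -2.56 ± 0.19 (SE, adjusted p = 2.88e-08). The highest B6 library was far below the lowest D2 library. The peak (chr2:24472726-24475249, mm10, 2524 bases) was found on the second genome alone. It may thus have entered the list through the founder where it is high, and the founder test is then not independent of its listing. It lies in an intron, 315 bases from the nearest start site, so it is not counted if the start site must lie inside the peak.

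The same peak was the only member called between the BXD strains, against 1.82% of promoter peaks and 4.89% of all peaks. BXD75 hepatocytes had 20.6, 22 and 20.1 CPM, against 4.401, 5.34 and 6.19 CPM in BXD87 hepatocytes (log2 1.96 ± 0.16, adjusted p = 1.09e-07). BXD75 thus lay above D2 and BXD87 between the founders. In stem cells the Pax8 peak was at 18, 14.8 and 17.1 CPM in B6 lines, against 14.6, 12.7 and 10.2 CPM in D2 lines (log2 0.41, adjusted p = 0.107). In germ cells it was at 16.4, 22.2 and 13.2 CPM in B6, against 19.4, 24.4 and 22.3 CPM in D2 (log2 -0.34, adjusted p = 0.231). The B6 samples of these cell types thus had 13.2 CPM or more, and D2 had 10.2 CPM or more.

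Markers of other liver cells were summed beside it. The 2 of 4 bile duct markers with a peak summed to 22.6 to 37.2 CPM in BXD75, 12.5 to 22.3 in BXD87, 19.5 to 23.1 in B6 and 9.21 to 10.8 in D2. The 2 of 8 fibroblast and stellate markers with a peak summed to 32.8 to 47.7 CPM in BXD75, 28.3 to 41.4 in BXD87, 27.7 to 31.4 in B6 and 18.9 to 20.1 in D2. Endothelial markers, 4 of 7 with a peak, summed to 28.9 to 31 CPM in BXD75, 34.4 to 39.6 in BXD87, 37.9 to 39.8 in B6 and 31.8 to 55.8 in D2. D2, high for Pax8, was lowest for the first 2 lists, while BXD75 tended to be above BXD87 in them, as at Pax8. The part of these cells in the Pax8 difference was not tested. Krt19 and Krt7 among the bile duct markers had no listed peak.

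**Figure D3:**
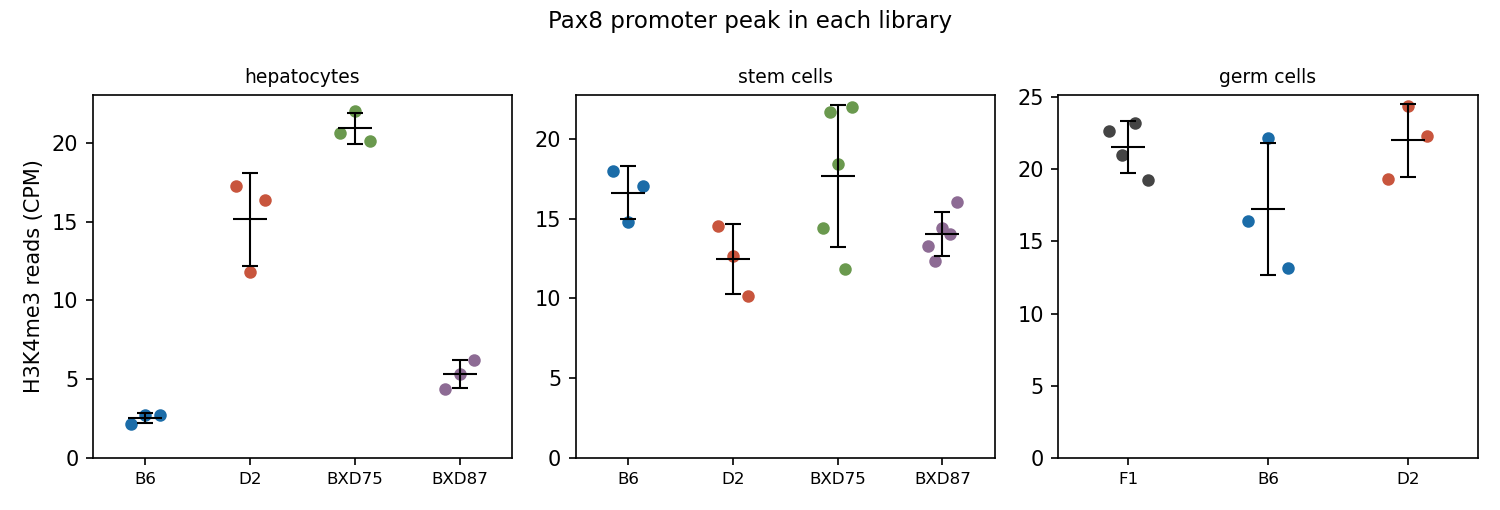
H3K4me3 level (CPM) at the Pax8 promoter peak in hepatocyte libraries, stem cell lines and germ cell libraries by strain. Points are libraries or lines, the long bar is the mean and the whiskers 1 SD, and each panel has its own axis from 0. B6 hepatocytes sit at 2.174 to 2.70 CPM and D2 hepatocytes at 11.8 to 17.3 CPM.

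The strongest hepatocyte member, Sox5, was not called by edgeR. It had 256, 214 and 231 CPM in B6, against 201, 183 and 203 CPM in D2 (log2 0.26 ± 0.09, adjusted p = 0.0537). Neither were Irx5 (log2 0.43 ± 0.15, adjusted p = 0.0741) or Dlx4 (0.59 ± 0.25, adjusted p = 0.153). In these 3 genes the B6 and D2 libraries did not overlap. The same held at Pax3 (adjusted p = 0.191), Irx3 (0.329) and the second Sox6 peak (0.258), which edgeR did not call either. How often this occurs over all peaks was not counted, so it is no sign of a difference by itself. The count of called members, 1 in the main test, was 2 with DESeq2 and 4 with the replicate block. Shares of promoter peaks called in those fits are not given. Sox6 was nearly level, with 119, 125 and 122 CPM in B6 and 121, 118 and 116 CPM in D2 at its main peak.

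In cardiomyocytes 8 of 37 member peaks were called between B6 and D2 (21.6%), against 8.8% of promoter peaks and 6.51% of all peaks. Lhx9, Sox6, Dlx6 and Irx4 were higher in B6, and Lhx2, Dlx2 and 2 Pax6 peaks were lower. The median log2 difference was -0.40 over member peaks and -0.05 over promoter peaks. The count was between 3 and 17 when single libraries were left out. It was 17 (13 of them lower in B6) without the B6 library of 6.84 M reads, and 3 to 4, all higher in B6, without any other single library. That B6 library had the highest summed level over the 37 member peaks, 2995 CPM, against 2390 and 2300 CPM in the other B6 libraries and 2548, 2842 and 2816 CPM in D2. D2 libraries were also the shallowest, with 2.62 to 4.10 M reads in peaks, against 6.84 to 8.34 M in B6. With every library thinned to the depth of the shallowest, an alternative added after seeing the data, 6 member peaks were called. Shares of promoter peaks called in these altered fits are not given, so whether other peaks moved as much is not shown.

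For 3 of the 4 members higher in B6, the interval on the second genome was much narrower than on the reference. The Lhx9 peak (chr1:138836521-138849505) is 12985 bases wide on the reference and 1772 bases on the second genome, or 13.6% of its width. Its level was 73, 95.6 and 67 CPM in B6, against 18.8, 20.8 and 17.8 CPM in D2 (log2 2.03 ± 0.16, adjusted p = 2.75e-06). Divided by the reference width for B6 and the second genome's width for D2, the means were 6.05 CPM per kb in B6 and 10.8 CPM per kb in D2, which turns the direction. No source used here says whether D2 reads were counted over the second genome's interval, so the B6 and D2 values of this peak may not cover the same bases.

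Sox6, at a peak that holds its printed promoter (chr7:116028648-116037095), had 117, 111 and 121 CPM in B6, against 48.4, 51.5 and 43.8 CPM in D2 (log2 1.27 ± 0.10, adjusted p = 3.08e-06). Its second-genome interval is 49.3% as wide, and with each founder's own width the means were 13.8 CPM per kb in B6 and 11.5 in D2. At the second Sox6 peak, of about equal width on both genomes, B6 had 36.9, 37.6 and 35.6 CPM and D2 had 37.1, 34.6 and 32.5 CPM. Dlx6 (chr6:6858186-6865671, also at Dlx6os2) had 51, 67.8 and 48 CPM in B6, against 26.8, 27 and 23.8 CPM in D2 (log2 1.096 ± 0.14, adjusted p = 0.000244). Its second-genome interval is 30% as wide, and the means by own width were 7.43 CPM per kb in B6 and 11.5 in D2. The 3 members thus had more reads in B6 where their interval was wider there. Means in BXD75 and BXD87 were 81.6 and 55.5 CPM at Lhx9, 117 and 125 at Sox6, and 56.6 and 46.4 at Dlx6. At each peak both BXD means lay nearer to the B6 mean than to the D2 mean. Whether D2 alone was low because its reads were counted over other bases was not tested. Irx3, at 53.5% of the width, was not called (log2 0.46).

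Irx4 is the member higher in B6 whose widths match, the second genome's interval being 101% of the reference. It had 245, 260 and 274 CPM in B6, against 189, 184 and 171 CPM in D2 (log2 0.52 ± 0.10, adjusted p = 0.00978), with no overlap. The call was lost only without the third D2 library (adjusted p = 0.0527). In the BXD strains BXD75 had 213, 252 and 264 CPM, against 314, 286 and 348 CPM in BXD87 (log2 -0.38, adjusted p = 0.132). The cardiomyocyte markers Ryr2 and Myl2 summed to 216 to 270 CPM in BXD75, 296 to 350 in BXD87, 240 to 314 in B6 and 187 to 220 in D2. They moved with Irx4 across the 4 groups, and their part in its difference was not tested.

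The members lower in B6 had matching widths on both genomes. Lhx2, a factor of eye and forebrain, had 61.8, 90.9 and 49.7 CPM in B6, against 118, 138 and 123 CPM in D2 (log2 -0.91 ± 0.23, adjusted p = 0.0325). Dlx2 had 56.8, 86.1 and 59.4 CPM in B6, against 92.7, 106 and 110 CPM in D2 (log2 -0.61 ± 0.16, adjusted p = 0.0403). At both the B6 library of 6.84 M reads was the B6 value nearest to D2. The 2 Pax6 peaks, found on the reference alone, were small, with 4.14 to 4.84 CPM in B6 and 8.69 to 10.5 CPM in D2 at the first (adjusted p = 0.0232), and 3.87 to 7.00 CPM in B6 and 8.92 to 15.5 CPM in D2 at the second (adjusted p = 0.0471). The main Pax6 peak was not called. With peaks whose widths differ by more than 10% set aside, an alternative chosen after seeing the data, 5 of 31 peaks were called, 1 higher and 4 lower in B6. The share of promoter peaks called under that limit is not given.

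**Figure D4:**
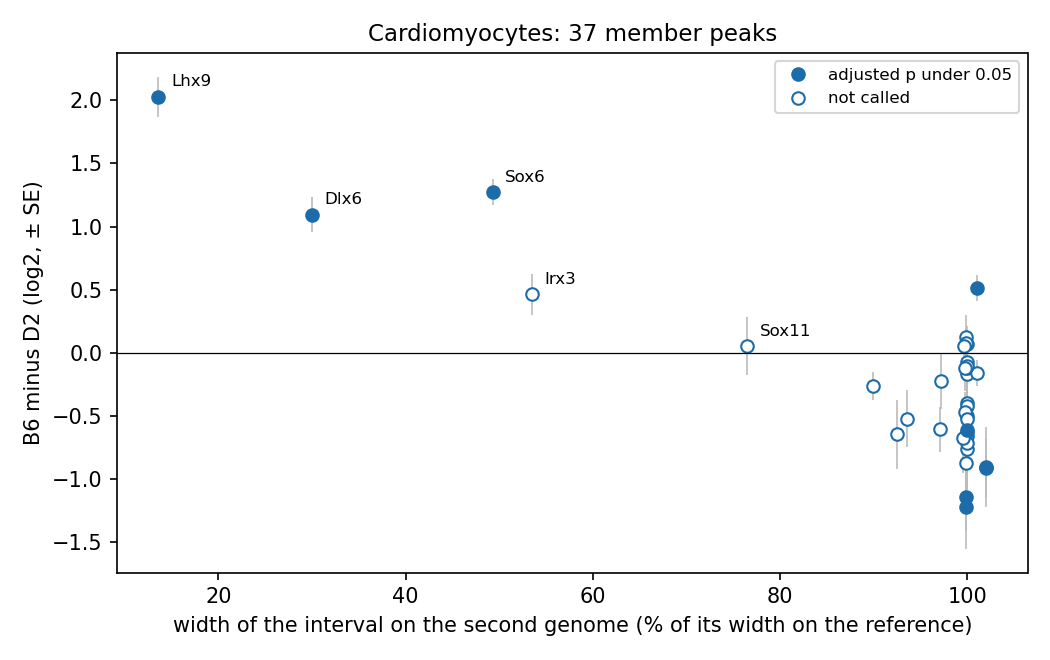
Log2 difference B6 minus D2 (± SE) of each of the 37 member peaks in cardiomyocytes against the width of its second-genome interval as a percent of its reference width. Filled points have an adjusted p under 0.05. Lhx9, Dlx6 and Sox6, at 13.6%, 30% and 49.3%, are the highest points, and most peaks of equal width lie below 0.

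Between BXD75 and BXD87 cardiomyocytes edgeR called 0 of 37 member peaks, against 0.381% of promoter peaks and 0.529% of all peaks, and DESeq2 called 4. At an unadjusted p under 0.05 there were 19, of which 18 were higher in BXD75, against 18.9% of promoter peaks in either direction and 12.5% higher. The median log2 difference was 0.44 over member peaks and 0.08 over promoter peaks. The smallest p were those of Lhx9, with 91.8, 67.3 and 85.7 CPM in BXD75 against 56.4, 55.3 and 54.7 CPM in BXD87 (adjusted p = 0.101), and Dlx2, with 81.1, 55.4 and 69.6 CPM against 42, 45.3 and 46.5 CPM (adjusted p = 0.121). The first BXD75 library was high at many members, with a summed level of 3010 CPM, against 2145 and 2408 CPM in the other BXD75 libraries and 2165 to 2321 CPM in BXD87. Without the second BXD75 library, the lowest of its group, 7 member peaks were called. Shares of promoter peaks called in that fit and by DESeq2 are not given, so whether other peaks moved as much is not shown.

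In germ cells B6 differed from D2 at 3 of 50 member peaks (6%), against 4.35% of promoter peaks and 17.3% of all peaks. Sox5 was higher in B6, and Lhx1 and Lhx3 were lower. The Sox5 peak (chr6:144208238-144211327) had 11, 16.3 and 20.3 CPM in B6, against 9.53, 7.32 and 10.1 CPM in D2 (log2 0.84 ± 0.23, adjusted p = 0.0163). The Lhx1 peak (chr11:84521454-84528123, also at Lhx1os) had 45.2, 67.6 and 38.6 CPM in B6, against 71.7, 71.5 and 78.9 CPM in D2 (log2 -0.54 ± 0.17, adjusted p = 0.0296). Lhx1 acts in the head organiser and the kidney. The Lhx3 peak (chr2:26205102-26208725) had 6.27, 9.75 and 7.46 CPM in B6, against 11.4, 15.5 and 13 CPM in D2 (log2 -0.74 ± 0.22, adjusted p = 0.0245). The founders did not overlap at these 3 peaks, but the gaps were small.

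The germ cell calls depended on single libraries. The count was 12 without the B6 library of 16.4 M reads, 0 without that of 8.27 M reads and 1 without the second D2 library. Shares of promoter peaks called in those fits are not given. The B6 library of 16.4 M reads had the highest summed member level of its group, 2083 CPM, against 1418 and 1590 CPM in the other B6 libraries and 1751, 2033 and 1800 CPM in D2. The 6 germ cell markers summed to 312 to 348 CPM in B6 and 410 to 417 CPM in D2, and 4 of 5 Sertoli markers to 239 to 357 CPM in B6 and 233 to 283 CPM in D2. The only Leydig marker of 5 with a peak, Hsd3b1, had 1.91 to 2.42 CPM in B6 and 5.15 to 10.2 CPM in D2. The part of these cells in the founder differences was not tested.

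The F1 hybrid was compared with each parent and with the mean of both. Against the mean edgeR called 0 of 50 member peaks, as did DESeq2, against 0.36% of promoter peaks and 1.59% of all peaks, and 0 had an unadjusted p under 0.05. The smallest p belonged to Sox1 (log2 0.29, adjusted p = 0.846) and Lhx5 (0.28, adjusted p = 0.85). Against B6 edgeR called 0, as did DESeq2, with 5 at an unadjusted p under 0.05 (6.93% of promoter peaks reach that), against a background of 1.12% of promoter peaks and 4.69% of all peaks called. Against D2 edgeR called 0, as did DESeq2, with 0 at an unadjusted p under 0.05, against 1.12% of promoter peaks and 5.87% of all peaks called. These comparisons share the founder libraries.

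At the peaks that differed between the founders, F1 libraries mostly overlapped a parent. Sox5 had 9.31, 7.31, 12.1 and 12 CPM in F1, which overlaps D2 and the lowest B6 library (F1 minus B6 -0.64, adjusted p = 0.1). Lhx1 had 69.3, 68.1, 66.6 and 57.5 CPM in F1, below every D2 library and overlapping the highest B6 library. Lhx3 had 14.5, 12.1, 11.7 and 8.43 CPM in F1, and its lowest library lay within the B6 range. F1 was called against neither parent at these genes with all libraries in the fit. Without the B6 library of 6.93 M reads Sox5 was called lower in F1 than in B6 (log2 -0.83, adjusted p = 0.024), and without the deepest B6 library 3 member peaks were called higher in F1.

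Across the 61 BXD strains Sox5 ranged over 5.50 to 31.6 CPM with a median of 13.6 CPM. At or above the lowest B6 library were 50 strains, and at or below the highest D2 library were 8. Lhx1 ranged over 48 to 83.7 CPM (median 65.2), with 40 strains at or below the highest B6 library and 12 at or above the lowest D2 library. Lhx3 ranged over 7.77 to 22.6 CPM (median 14.8), with 5 strains within reach of the B6 libraries and 52 within reach of the D2 libraries. Among the 28 strains of antibody lot 2557645, the lot of the founders and F1, the medians were 11.5 CPM for Sox5, 62.2 for Lhx1 and 13.8 for Lhx3, the ranges were 5.50 to 25.2, 48 to 83.7 and 7.77 to 20.3 CPM, and 17, 22 and 5 strains reached the B6 libraries and 8, 3 and 21 those of D2.

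The SD over strains of log2(CPM + 0.5) had a median of 0.230 over member peaks, against 0.189 over all promoter peaks. The most variable member peaks were a small Sox10 peak found on the reference alone, at 0.590 (1.498 to 16.3 CPM), a small Sox6 peak found on the reference alone, at 0.537, and Sox5, at 0.523. The Sox5 spread was thus wide at a level well above that of the other 2. The main Sox10 peak had an SD of 0.341.

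**Figure D5:**
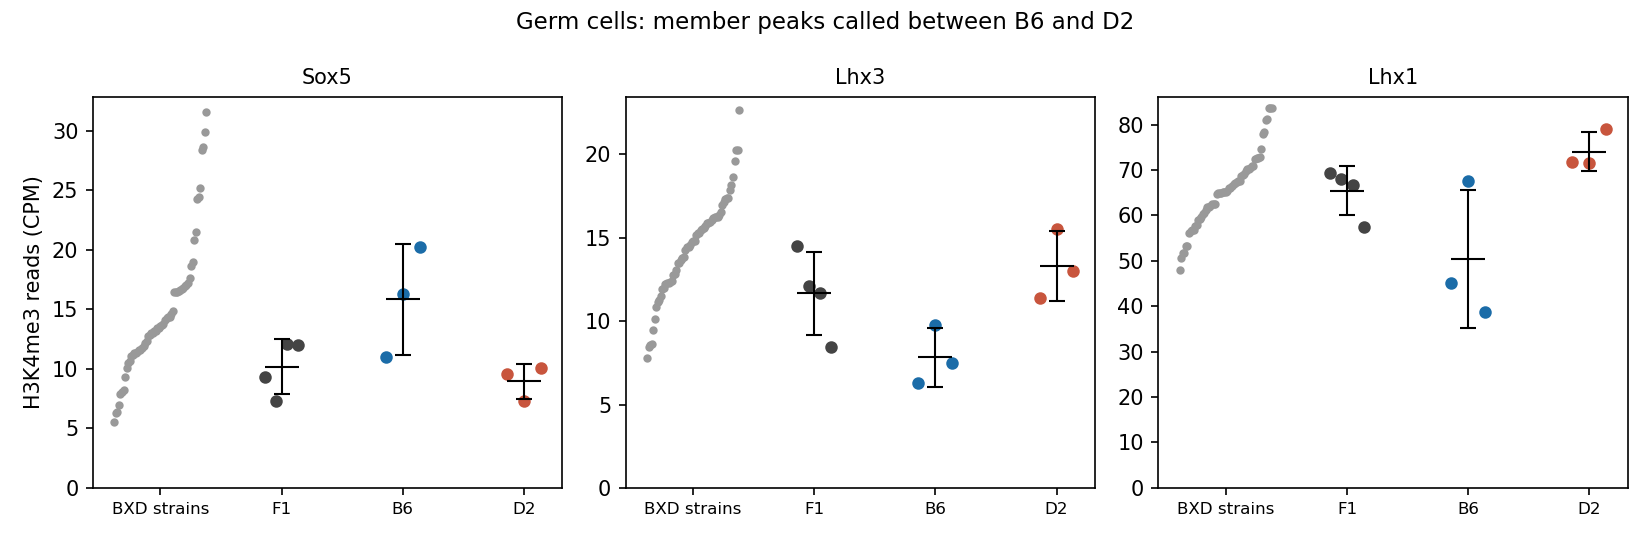
H3K4me3 level (CPM) at the 3 member peaks called between B6 and D2 germ cells. Grey points are the 61 BXD strains in rising order, the other points are libraries of F1, B6 and D2, with the mean (long bar) and 1 SD (whiskers). The strains span 5.50 to 31.6 CPM at Sox5, 7.77 to 22.6 at Lhx3 and 48 to 83.7 at Lhx1.

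Most member peaks differed between the antibody lots. Between 28 strains of lot 2557645 and 32 strains of lot 2746331, 36 of 50 member peaks were called (72%), against 63.5% of promoter peaks and 56.4% of all peaks. Of these, 35 were lower in lot 2557645 and 1, Sox30, was higher (log2 0.24 ± 0.05, adjusted p = 5.28e-05). Among promoter peaks the split was 37% higher and 26.5% lower. The median log2 difference was -0.16 over member peaks and 0.02 over promoter peaks. Sox5 differed by -0.47 ± 0.12 (adjusted p = 0.00083), Lhx3 by -0.18 ± 0.07 (adjusted p = 0.0318) and Lhx1 by -0.11 ± 0.04 (adjusted p = 0.0157). The 1 strain with both lots was left out, and the others differ between lots, so lot and genotype cannot be told apart here.

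Whether a founder difference itself differed between cell types was tested on peaks matched at 50% reciprocal overlap, which leaves the members with similar intervals in both lists, and each gap comes from a joint fit. Between stem and germ cells 3 of 35 member peaks were called (8.57%), against 8.76% of 23730 matched peaks. The Sox11 difference was 1.11 in stem cells and -0.12 in germ cells, a gap of 1.17 ± 0.19 (adjusted p = 8.7e-05). Germ cells had 68.7, 96.5 and 72.2 CPM at Sox11 in B6, against 78.8, 94.3 and 86.2 CPM in D2. For the first Lhx9 peak the gap was -0.90 ± 0.21 (adjusted p = 0.00461), from -0.89 in stem cells and -0.05 in germ cells. For Sox5 it was -1.04 ± 0.28 (adjusted p = 0.0172), from -0.15 in stem cells and 0.84 in germ cells.

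Between stem cells and hepatocytes 1 of 9 member peaks was called, against 9.33% of 9741 matched peaks. It was Pax8, with a gap of 2.93 ± 0.29 (adjusted p = 8.47e-06). Its hepatocyte peak is the one listed on the second genome alone, with the limit given above. Between hepatocytes and cardiomyocytes 2 of 7 were called, against 11.5% of 8138 matched peaks. Sox6 had a gap of -1.26 ± 0.11 (adjusted p = 4.15e-07), from 0.04 in hepatocytes and 1.27 in cardiomyocytes, where the widths on the 2 genomes differ as given above. Dlx4 had a gap of 1.31 ± 0.32 (adjusted p = 0.0125), from 0.59 in hepatocytes and -0.76 in cardiomyocytes. In cardiomyocytes Dlx4 had 22.5, 35.6 and 19.4 CPM in B6, against 32.6, 50.4 and 48 CPM in D2. The founders overlapped there, and neither cell type called Dlx4 on its own.

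Other gene lists give the setting of these counts. Of other developmental transcription factors 10 of 61 peaks were called between B6 and D2 cardiomyocytes, 5 higher in B6 (Gata6, Nkx2-5, Tbx5, Tbx20 and Meis2) and 5 lower (Nkx6-2, Zic5, Tbx1, Vax2 and Neurog2), with a median log2 difference of -0.38. The second-genome interval was 35.8% of the reference width at Gata6, 60.3% at Nkx2-5, 86.4% at Tbx5 and 114% at Nkx6-2. The B6 and D2 values of those peaks may not cover the same bases. At the other called peaks of this list it was 99.3% to 101%. Between BXD75 and BXD87 cardiomyocytes the median of this list was 0.40 and 0 were called. The shift of the median in cardiomyocytes was thus seen in both sets of developmental genes. In germ cells 2 of 68 such peaks were called between the founders (Otx1 and Tbx4, lower in B6), in stem cells 1 of 76 (Isl1, higher) and in hepatocytes 1 of 26 (Meis2, lower), against the 4.35%, 12.7% and 7.5% of promoter peaks given above. Between BXD75 and BXD87 stem cells 9 of these 76 peaks and 4 of 32 polycomb peaks were called, against 11.7% of promoter peaks. Genes of the polycomb complexes, whose mark was not analysed here, had 1 of 32 peaks called between founder stem cells (Phc2, higher in B6) and 0 in the other founder comparisons. Genes of H3K4 methylation at CpG islands had 2 of 13 called in stem cells between the founders (Kdm5b higher and Dpy30 lower in B6). They had 2 called between BXD75 and BXD87 stem cells (Kdm5b higher and Rbbp5 lower in BXD75) and 0 in the other cell types. Housekeeping genes had B2m in stem cells and Gapdh in cardiomyocytes, both higher in B6. The second-genome interval was 68.7% of the reference width at Gapdh, 116% at Kdm5b and 120% at Dpy30.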

How the data were processed

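Reads per H3K4me3 peak were deposited as whole-number counts in 1 table per cell type, with a list of peak positions on the mm10 reference and on a second genome. Per the submitters' processing notes the tools were CASAVA 1.8, BWA 0.5.10 and MACS 1.4.2, with no order or settings. How D2 reads were counted and which assembly the second genome is are not given in the sources used here. The 12 input libraries were not used here.

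Counts were tested with edgeR 4.0.16 (R 4.3.3): filterByExpr, TMM scaling, robust quasi-likelihood fits, Benjamini-Hochberg adjustment over all peaks and a threshold of 0.05, with DESeq2 1.42.0 as an alternative. CPM values are TMM-scaled. Stem cell libraries were summed by line. Founders and F1 were fitted together in germ cells, and all 4 strains in the other cell types. Peaks were assigned to start sites of GENCODE M21 by their distance on the mm10 reference. Peaks of different cell types were matched with bedtools 2.31.1. On simulated counts, 2-fold changes were recovered at 88% of the changed peaks for germ cells. For stem cells this was 91%, for hepatocytes 94% and for cardiomyocytes 93%. False calls numbered 10, 8, 13 and 11 in that order. The simulation gave every peak the same spread between libraries and changed only peaks above a minimum of reads. It therefore does not give the recovery at member peaks that are small or vary more between libraries. Alternatives covered scaling, filters, peak assignment, DESeq2, replicate blocks and leaving out each replicate.

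The members and gene lists were chosen with earlier results of these data known. The genes named are the members called in each comparison (at most 12, and where none was called the 2 of smallest p), the 8 strongest and the 5 widest per cell type. A member outside that rule is named for its family or its contrast, after its values were seen.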

Additional observations from a re-analysis of the deposited data

Results flagged for a closer look

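The difference between B6 and D2 itself differed between cell types at 6 member peaks, each by a test of that difference in a joint fit with edgeR's quasi-likelihood test. Between stem cells and germ cells the log2 gap was 1.17 at Sox11 (adjusted p = 8.7e-05), -0.90 at Lhx9 (adjusted p = 0.00461) and -1.04 at Sox5 (adjusted p = 0.0172). These are 8.57% of 35 member peaks, against 8.76% of all matched peaks. Between stem cells and hepatocytes it was 2.93 at Pax8 (adjusted p = 8.47e-06), whose hepatocyte peak was listed on the second genome alone. Between hepatocytes and cardiomyocytes it was -1.26 at Sox6 (adjusted p = 4.15e-07) and 1.31 at Dlx4 (adjusted p = 0.0125). The Sox6 interval in cardiomyocytes is 49.3% as wide on the second genome, and its means by own width were 13.8 CPM per kb in B6 and 11.5 in D2. With 80% overlap the counts were 0 for both pairs with hepatocytes, and leaving out single replicates gave 1 to 3 for hepatocytes against cardiomyocytes. Cell types differ in peak list, sex, age and, for germ cells, kit and antibody lot, which cannot be told apart from cell type. Over the 19 sets of 4 to 5 samples at named member peaks that were large enough to test, no sample stood apart from its group, where chance flags about 5% of sets.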

How the results depend on the processing

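No named member changed direction under any alternative fit; dividing by each founder's own interval width, given above for cardiomyocytes, is a description and no fit. The calls of Sox11, Lhx9 (first peak) and Sox13 in stem cells, Pax8 in hepatocytes and Lhx9, Sox6 and Dlx6 in cardiomyocytes held under all of them, except where an alternative removes the peak. The limit on widths removes these cardiomyocyte peaks, and the start site rule removes Pax8. Those alternatives therefore do not test these calls. Pax8 and the small Sox13 peak were also listed on the second genome alone, with the limit given above. Counts of called member peaks moved as follows. Shares of all promoter peaks called in these altered fits are not given, here or above. A count that moved may thus reflect all peaks and not the members. Between B6 and D2 germ cells the count was 1 with a filter of 50 reads. Between B6 and D2 stem cells it was 13 with each library as a replicate. Between B6 and D2 hepatocytes it was 2 with DESeq2, 4 with the replicate block and 0 with the start site inside the peak, and 0 for the last also between BXD75 and BXD87. Between B6 and D2 cardiomyocytes it was 5 with the replicate block and 5 with widths within 10%, and between BXD75 and BXD87 it was 4 with DESeq2. With 80% overlap it was 0 for stem cells against hepatocytes and 0 for hepatocytes against cardiomyocytes.

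Leaving out single replicates gave 0 to 12 for B6 against D2 in germ cells, 0 to 3 for F1 against B6, 0 to 0 for F1 against D2 and against the mean, 4 to 10 for B6 against D2 and 4 to 7 for BXD75 against BXD87 in stem cells, 1 to 2 and 1 to 1 in hepatocytes, and 3 to 17 and 0 to 7 in cardiomyocytes. For differences between cell types it gave 2 to 6 for stem against germ cells, 1 to 1 for stem cells against hepatocytes and 1 to 3 for hepatocytes against cardiomyocytes. Stem cells gave 10 without D2 line 216, and F1 against B6 gave 3 without the deepest B6 library.

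Same-numbered replicates were not treated as pairs in the main fits. Correlations of same-numbered deviations exceeded 0.1 in 5 of 18 pairs in hepatocytes (-0.265 to 0.605) and 8 of 18 in cardiomyocytes (-0.734 to 0.65). In germ cells 0 of 3 did (-0.171 to -0.0198). Some same-numbered libraries of hepatocytes and cardiomyocytes thus deviated together and others did not, and the counts with the replicate block are given above. D2 cardiomyocyte libraries held 2.62 to 4.10 M reads in peaks, and thinning all libraries to the shallowest gave a count of 6.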
